A study of Vernicia fordii and Jatropha curcas with 4 samples.

Results

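The cytosolic ribosomal proteins described here are 60 Arabidopsis locus codes, a sample of the gene families that encode the proteins of the large and small subunits of the cytosolic ribosome. A contig, an assembled transcript sequence, was counted to a member when its deposited TAIR10 locus code was that of the member. In this way 34 of the 60 members were found in the table of Jatropha curcas, on 61 of its 45411 contigs, and 40 in the table of Vernicia fordii, on 69 of its 49582 contigs. Both tables held 32 of the members and 42 occurred in at least 1 table, and the other 18 are not analysed here. RPKM, the reads of a contig scaled to its length and to the reads mapped per library, was summed over the contigs of each member.

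The study compared lipid synthesis in seeds of 2 oil trees, physic nut (Jatropha) and tung tree (Vernicia), with 2 RNA sequencing libraries per species. Seeds came from 3-year-old trees, those of Jatropha from farmland in southern Guizhou and those of Vernicia from northwest Hunan, and the source is labelled endosperm. In each species 1 library was from the early stage of oil accumulation (29 days after pollination in Jatropha, 90 in Vernicia) and 1 from the fast stage (37 and 135 days), and each was made from equal amounts of RNA from 3 seeds. No cultivar, genotype or treatment is given. The value columns are numbered 7 and 8, and no label says which number is which stage, so the libraries are called library 7 and library 8 and no difference is given a direction in time. With 1 library of each kind there is no replicate check and no p-value anywhere below, and read totals are unknown, so no counting interval can be given either. The labelled tissue could not be checked against marker genes, because the files give locus codes without gene names. For the same reason the members are given by code, without the name or the subunit of each protein.

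Cytosolic ribosomes translate the messages of nuclear genes. Each is built from a large and a small subunit, and each subunit joins ribosomal RNA to a fixed set of proteins, most of them present once per ribosome. The proteins are therefore needed in matched amounts, and their transcripts are among the most abundant in growing tissue. Plants encode most ribosomal proteins by several genes with nearly identical products, so a tree contig may match any of several Arabidopsis copies, and reads may be shared between copies. In a filling seed, ribosomes on the endoplasmic reticulum make the storage proteins while oil accumulates.

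Most members were abundant in both libraries of each species. In Jatropha the 34 members ranged from 1.40 to 4287 RPKM in library 7, with a median of 906 RPKM, and from 2.89 to 739.67 RPKM in library 8, with a median of 254 RPKM. In Vernicia, the 39 members with at least 1 RPKM in either library ranged from 1.04 to 1739 RPKM in library 7 (median 256) and from 1.12 to 3728 RPKM in library 8 (median 197). The one remaining member, AT3G53870, had 0.22 and 0.35 RPKM and was left out of the counts. Ranked against the 13319 loci of the Jatropha table, 33 of 34 members lay in the top 10% in library 7 and 32 in library 8. Against the 13333 loci of Vernicia these were 31 and 29 of 39.

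**Figure D1:**
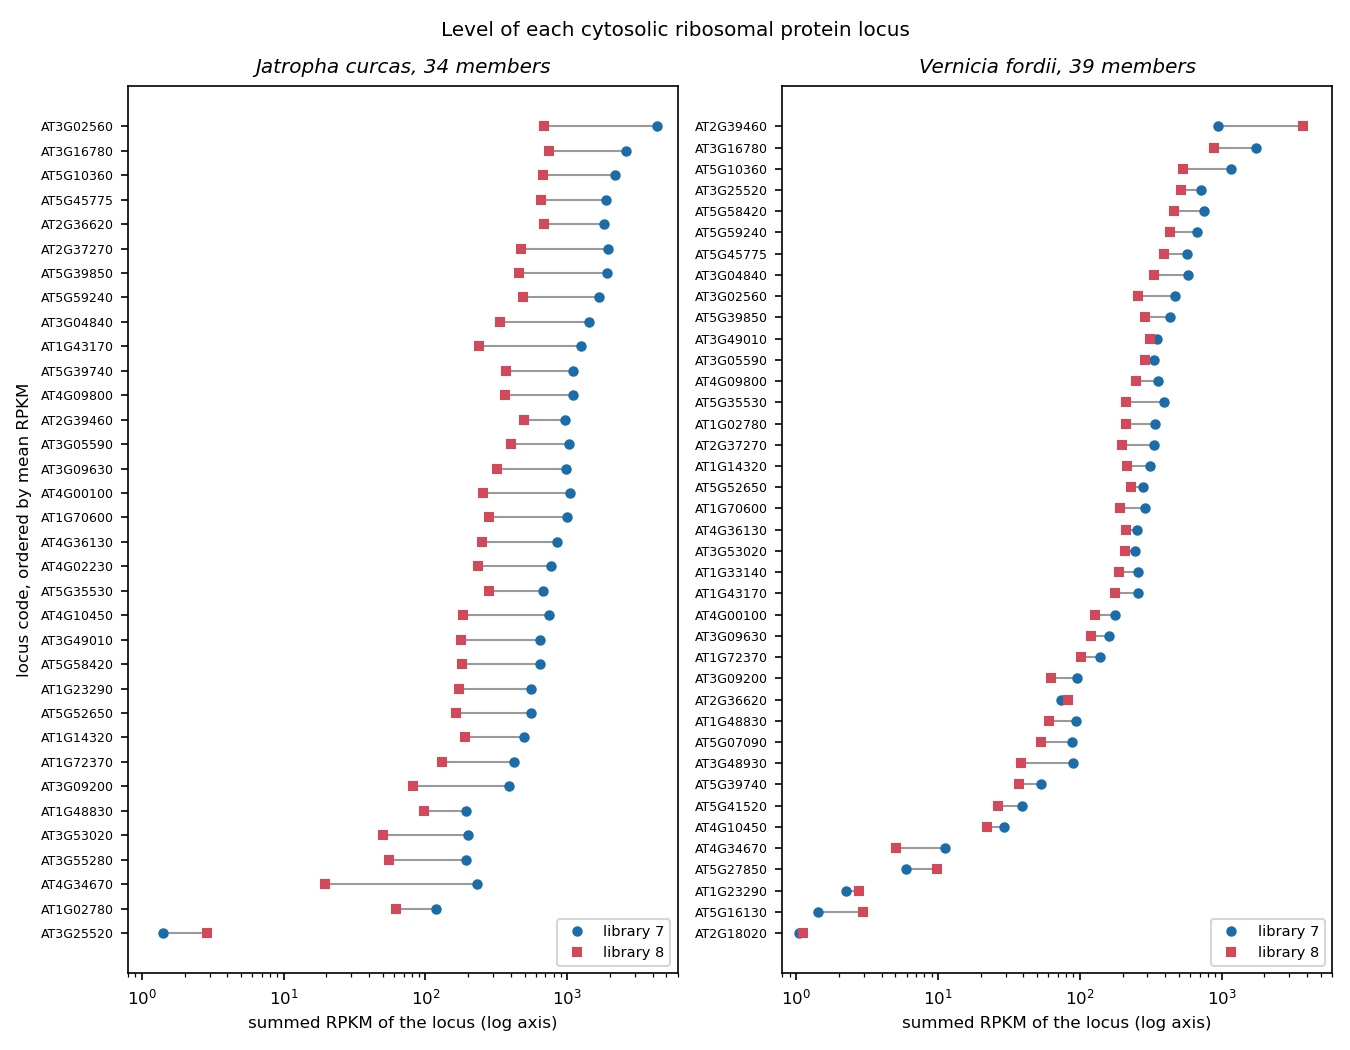
Summed RPKM of each member locus in library 7 (circles) and library 8 (squares) of Jatropha (left, 34 loci) and Vernicia (right, 39 loci), on a log axis and ordered by mean RPKM. In Jatropha every member but AT3G25520 lies lower in library 8, most of them by a similar distance and AT4G34670 by the largest. In Vernicia most distances are short, and AT2G39460 stands apart at 3728 RPKM in library 8.

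In Jatropha seeds the ribosomal protein transcripts were lower in library 8 nearly throughout, and most of them by similar factors. Of the 34 members, 33 were lower in library 8, where 80.3% of the 12931 loci that reached 1 RPKM in one library or both were lower. Differences were taken as log2((library 8 + 1)/(library 7 + 1)) in RPKM, a scale that understates the change of low loci. On it 30 of 34 members were at least 2-fold lower in library 8, against 46.9% of all loci, and 0 were at least 2-fold higher, against 7.15%. At least 4-fold lower in library 8 were 8 members, against 16.0% of all loci. The median member differed by -1.75, and the median of all loci by -0.93. Summed over the members, RPKM was 35758 in library 7 and 10239 in library 8, which was 3.24% and 1.25% of the RPKM of each library and 3.49 times as much in library 7. In bulk RNA pooled from seeds, fewer cells of a type and less RNA per cell cannot be told apart.

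The most abundant Jatropha member was AT3G02560, on a single contig, with 4287 RPKM in library 7 and 688 RPKM in library 8. It was seventh among all loci in library 7 by rank, and its log2 difference of -2.64 was the second largest deficit among the members. AT3G16780 followed with 2576 and 739.67 RPKM, a log2 difference of -1.80, and AT5G10360 with 2159.6 and 669 RPKM, a difference of -1.69 over 5 contigs. AT5G45775 had 1863 and 652 RPKM and AT2G36620 had 1801 and 684 RPKM, with log2 differences of -1.51 and -1.40. Below AT3G02560 these 4 members thus kept close to one another in both libraries. In library 7, 14 members reached 1000 RPKM, and in library 8 none did, the highest being AT3G16780. Fewer loci of any kind reached that level in library 8. AT3G05590, with 1026 RPKM, was ranked 97 among all loci in library 7, while AT3G16780, with 739.67 RPKM, was ranked 59 in library 8.

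The largest Jatropha deficit was that of AT4G34670, with 229 RPKM in library 7 and 19.45 RPKM in library 8, a log2 difference of -3.49 and 11.8 times as much in library 7. It rests on 1 contig and was among the 5 least abundant members. After AT3G02560, AT1G43170 had 1251 and 239 RPKM (log2 difference -2.39) and AT3G09200 had 386 and 81.8 RPKM (-2.22). These deficits lie below the bulk of the members, of which the middle 50% spanned only -1.99 to -1.53.

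At the other end, 4 Jatropha members were less than 2-fold lower or were higher. AT1G02780 had 119 and 62.4 RPKM, AT2G39460 had 968 and 495 RPKM and AT1G48830 had 193 and 98.2 RPKM, with log2 differences of -0.92, -0.97 and -0.97. All 3 lay just inside the 2-fold limit, at 1.91 to 1.97 times as much RPKM in library 7. The only member higher in library 8 was AT3G25520, with 1.40 and 2.89 RPKM on 1 contig, a log2 difference of 0.70 at a level where the pseudocount weighs heavily. Also among the 5 least abundant members were AT3G55280, with 194 and 54.9 RPKM (-1.80), and AT3G53020, with 200.0 and 49.8 RPKM (-1.98), so low level did not go with a smaller difference in these.

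The members lay closer to one another than loci did in general. In Jatropha the interquartile range of the log2 differences was 0.46 over the 34 members and 1.40 over all loci, and the SD was 0.64 against 1.44. Within 0.5 of their own median lay 27 of 34 members (79.4%), against 37.6% of all loci around theirs. Abundant loci as a whole were not closer together, since the 752 loci with a mean of at least 100 RPKM had an interquartile range of 1.75, and the 32 members at that level one of 0.40. Among those abundant loci 59.3% were at least 2-fold lower in library 8 and their median was -1.37. The order of the members was nearly kept, with a Spearman rho of 0.93 between the levels of the 2 libraries across 34 members. Pearson's r of the log2 levels was 0.94. Both are descriptions over loci that share both libraries. Neither is given for all loci here, so neither shows a trait particular to the members.

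**Figure D2:**
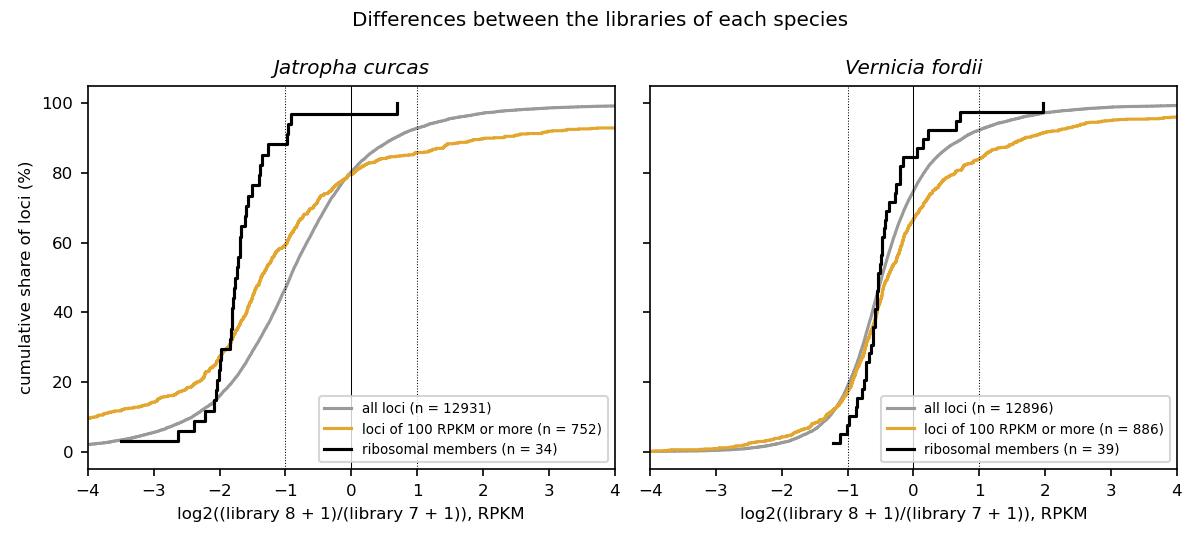
Cumulative share of loci (vertical axis, in %) by log2 difference between library 8 and library 7 (horizontal axis) for all loci, loci averaging 100 RPKM or more and the ribosomal members; dotted lines mark the 2-fold limits, and loci beyond the horizontal limits are not drawn. The curve of the members climbs steeply around -1.75 in Jatropha, where the median of all loci is -0.93, and around -0.53 in Vernicia, close to the median of -0.48 of all loci.

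The direction of the Jatropha members remained when library 8 was rescaled, but their differences became smaller. Across 18303 contigs with at least 1 RPKM in both libraries the median log2 ratio was -0.83. Dividing it out (median-ratio scaling) left the median member at -0.92 and the median of all loci at -0.19. Then 33 of 34 members were still lower in library 8, against 57.6% of loci. At least 2-fold lower were 11, down from 30 and closer to the share of all loci, which was 24.0%. Whichever scaling was used, the same 33 members were lower and AT3G25520 was higher. Of the 33, AT1G02780, AT2G39460 and AT1G48830 hardly differed after median-ratio scaling, at -0.10, -0.14 and -0.15. RPKM also depends on how much of a library its most abundant contigs take, and without the top 10 contigs of either library the members held 5.08% of the RPKM in library 7 and 2.25% in library 8.

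In Vernicia seeds the ribosomal protein transcripts differed little between the libraries, and about as much as loci in general. As deposited, 33 of 39 members were lower in library 8, against 74.8% of 12896 loci, and 27 were after median-ratio scaling. Only 3 were at least 2-fold lower, against 18.8% of loci, and 1 was at least 2-fold higher, against 7.7%. The median member differed by -0.53 and the median locus by -0.48. Median-ratio scaling, which removed the median log2 ratio of -0.40 over 22363 contigs, left the median member at -0.13, with 27 of 39 members lower, against 57.8% of loci, and 0 at least 2-fold lower, against 9.34%. After that scaling 6 members turned from lower to higher, namely AT3G05590, AT3G49010, AT3G53020, AT4G10450, AT4G36130 and AT5G52650, so the direction of members with small differences depended on the scaling.

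Evenness was seen in Vernicia too. The interquartile range of the differences was 0.42 over the members and 0.87 over all loci, and 31 of 39 members (79.5%) lay within 0.5 of their median, against 55.8% of loci. Among loci averaging 100 RPKM or more the range was 1.13, and 0.29 over the 26 members at that level. Of those 26 members, 24 lay within 0.5 of their median, against 48.0% of the 886 loci at that level around theirs. Between the libraries the log2 levels of the 39 members had a Pearson r of 0.97. This is again a description over loci from the same libraries, with no value for all loci beside it.

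One Vernicia member broke this pattern. AT2G39460, carried by the single contig comp21031_c0, had 950 RPKM in library 7 and 3728 RPKM in library 8, 3.93 times as much in library 8 and a log2 difference of 1.97. It was ranked 47 among all loci in library 7 and 12 in library 8. It held 7.26% of the members' summed RPKM in library 7 and 32.5% in library 8. The sum over the 39 members was 13084 RPKM in library 7 and 11466 RPKM in library 8, or 1.94% and 1.53% of the libraries, and without AT2G39460 it was 12134 and 7738 RPKM, or 1.79% and 1.03%. The log2 ratio of the sums was thus -0.19 with this member and -0.65 without it, while the median difference was -0.53 and -0.54. In Jatropha the same code was carried by 2 contigs, with 499.5 and 265 RPKM on one and 468 and 230.0 RPKM on the other, and it was lower in library 8.

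The other abundant Vernicia members were lower in library 8. AT3G16780 had 1739 and 879 RPKM, a difference of -0.98 in log2, and AT5G10360 had 1155 and 530.3 RPKM and a difference of -1.12, past the 2-fold limit. AT3G25520 had 721 and 519 RPKM (-0.47) and AT5G58420 had 755 and 459 RPKM (-0.72). The largest Vernicia deficit was that of AT3G48930, at -1.21 on the log2 scale, from 89.9 and 38.2 RPKM. The third member past the limit, AT4G34670, was low, with 11.2 and 5.06 RPKM and a difference of -1.01, and it was also the member with the largest deficit in Jatropha. AT5G10360 and AT3G16780 were among the 5 most abundant members of both species.

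Of the 6 Vernicia members higher in library 8, 4 were under 10 RPKM in both libraries. AT5G16130 had 1.42 and 2.96 RPKM (log2 difference 0.71), AT5G27850 had 5.95 and 9.83 RPKM (0.64), AT1G23290 had 2.25 and 2.78 RPKM (0.22) and AT2G18020 had 1.04 and 1.12 RPKM (0.06, which turned with a rescaling to equal totals of RPKM). The sixth, beside AT2G39460, was AT2G36620 with 74.2 and 82.1 RPKM, a difference of 0.14 that turned in the same way.

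Some members were found in 1 species only. In Jatropha these were AT3G55280 and AT4G02230, the latter at 774 and 234 RPKM, a log2 difference of -1.72. In Vernicia they were AT1G33140, AT5G07090, AT5G41520 and AT3G48930, which had 26.5 to 256 RPKM, and AT2G18020, AT5G16130, AT5G27850 and AT3G53870, which had under 10 RPKM. AT1G33140 had 256 and 188 RPKM (log2 difference -0.45), AT5G07090 had 87.5 and 52.9 RPKM (-0.72) and AT5G41520 had 39.2 and 26.5 RPKM (-0.55). A gene found in 1 species only and a contig matched to another of several near-identical copies cannot be told apart here.

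Set side by side as deposited, the differences were lower in Jatropha for nearly every member found in both tables. Of 32 such members 28 were lower in library 8 of both species as deposited and 22 after median-ratio scaling. Of the loci that passed the filter of 1 RPKM in each species, 63.9% of 11054 were lower in both as deposited and 34.8% of 11180 after that scaling. As deposited, the Vernicia log2 difference lay above that of Jatropha in 31 of 32 members, against 65.5% of the 11054 loci, and by 1.26 in the median member, against 0.47 in the median locus. The exception was AT3G25520. Loci with a mean of at least 100 RPKM also lay lower in Jatropha as deposited, with medians of -1.37 there and -0.39 in Vernicia. The members at that level had medians of -1.77 and -0.54. After median-ratio scaling the Vernicia difference was above that of Jatropha in 28 of 32 members, against 53.8% of loci. It was above by 0.83 in the median member, against 0.11 in the median locus. Closest to each other were AT1G02780 (-0.92 in Jatropha, -0.67 in Vernicia), AT1G48830 (-0.97 and -0.61) and AT5G35530 (-1.27 and -0.88), and in these 3 the order of the species turned with that scaling. The stage behind a column number may differ from one species to the other, so these values cannot be read as a comparison of stages. Across the 32 members, Pearson's r between the Jatropha and Vernicia differences was 0.29 and Spearman's rho 0.28, a description over loci that share the libraries of each species. Without AT2G39460 and AT3G25520 they were 0.29 and 0.22, and over the 11054 loci 0.17 and 0.07.

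**Figure D3:**
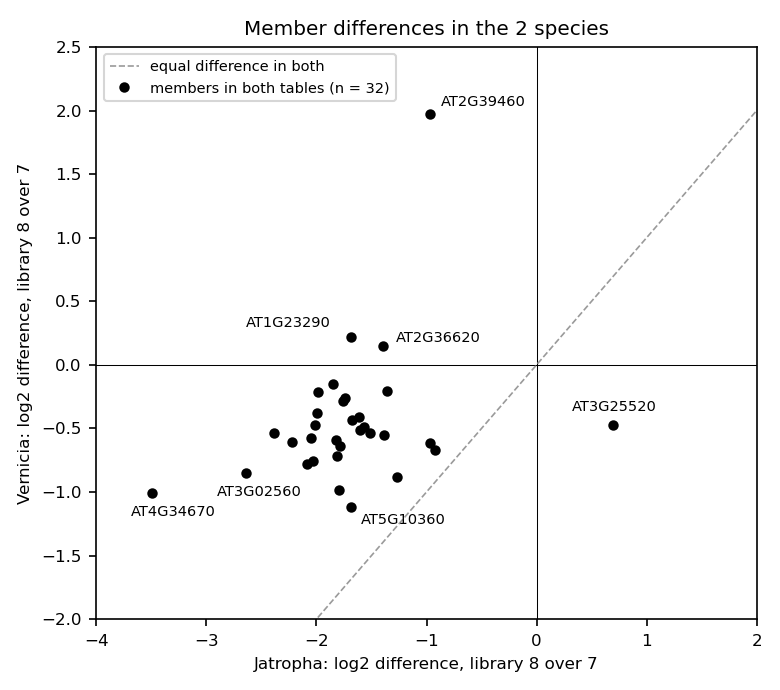
Log2 difference between library 8 and library 7 in Jatropha (horizontal axis) and Vernicia (vertical axis) for the 32 members found in both tables; the dashed line marks equal differences. Both differences lie below 0 for 28 of 32 members, and 31 lie above the dashed line; AT2G39460 stands apart at -0.97 and 1.97, as does AT3G25520, below the line, at 0.70 and -0.47.

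Which code was the abundant one differed between the tables for some members. Levels were compared as ranks within each table, since the tables were normalized separately. AT3G25520 lay at percentile 8.10 of all loci in Jatropha library 7 and at percentile 99.5 in Vernicia library 7. AT1G23290 had 557 and 172 RPKM in Jatropha, at percentile 98.6 in library 7, against 13.2 in Vernicia. AT4G10450 had 741 and 185 RPKM in Jatropha and 29.1 and 22.2 RPKM in Vernicia, at percentiles 99.0 and 73.5 in library 7. Over the 32 members the mean levels of the species had a Spearman rho of 0.41. It was 0.53 without AT2G39460 and AT3G25520, and 0.46 over the 29 members left when those low in either table were dropped. Over the 11054 loci rho was 0.63. Most members lie among the most abundant loci, a narrower range of levels than that of all loci. These values therefore cannot show whether member levels were less alike between the species than those of loci in general.

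Within a member, contigs of 10 RPKM or more went the same way with 1 exception, while rare contigs went either way. In Jatropha 0 of 55 member contigs with a mean of at least 10 RPKM were higher in library 8, against 19.0% of all contigs with a locus code at that level, and in Vernicia 3 of 47, against 25.1%. The 3 were comp21031_c0 of AT2G39460, comp12633_c0 of AT2G36620 and comp27398_c0 of AT3G05590. Below 10 RPKM, 3 of 6 were higher in Jatropha, against 29.6%, and 16 of 22 in Vernicia, against 28.7%. In members that also had a contig of 10 RPKM or more, 2 of 5 rare contigs were higher in Jatropha and 9 of 13 in Vernicia. The 22 rare Vernicia contigs had a median log2 difference of 0.41, and the 47 others one of -0.54. Rare contigs weigh little in the sums, for example 0.91 and 1.97 RPKM of comp98368_c0 beside 567 and 388 RPKM of comp26907_c0, both matched to AT5G45775.

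**Figure D4:**
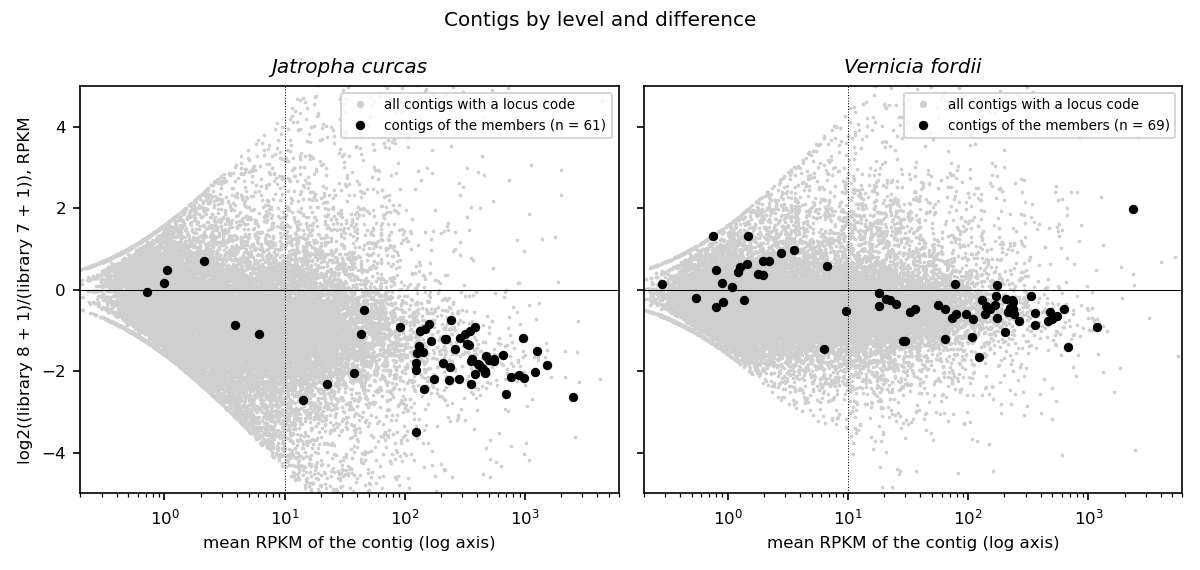
Log2 difference (vertical axis) against mean RPKM (horizontal axis, log) for contigs of the members (black) and all contigs with a locus code (grey) in each species; the dotted line marks 10 RPKM, and contigs beyond the axis limits are not drawn. Right of the dotted line 0 of 55 member contigs lie above 0 in Jatropha and 3 of 47 in Vernicia, while left of it 16 of 22 do in Vernicia.

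In size the contigs of 1 member could still differ. Among 15 Jatropha members with several contigs of at least 10 RPKM the contigs were all lower in library 8, and their log2 differences were 0.99 apart in the median member. The widest gap was in AT1G43170, where comp27618_c0 had 1197 and 201 RPKM (-2.57) and comp11893_c0 had 54.0 and 37.8 RPKM (-0.50). In Vernicia 12 members had several such contigs, 0.58 apart in the median member, and only those of AT3G05590 went both ways, with 165 and 108 RPKM on one contig and 168 and 181 RPKM on the other. The contigs of AT5G10360 were furthest apart, with 978 and 371 RPKM (-1.40) on one and 178 and 159 RPKM (-0.16) on the other.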

How the data were processed

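Directional libraries of polyadenylated RNA were made per the labels' protocols. For each species the authors deposited RPKM of assembled contigs, a unit read from the names of the tables, and a TAIR10 locus code for part of the contigs. The submitters' processing notes name Bowtie and edgeR, with neither role nor version. How contigs were assembled, counted, filtered and matched to codes was not given in the sources used here. RPKM depends on the composition of each library, so very abundant contigs lower all others.

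RPKM was summed per locus code. Loci that reached 1 RPKM in one library or both were compared as log2((library 8 + 1)/(library 7 + 1)) with a 2-fold limit, and all loci of the table were treated alike as background. No test was run, since there is 1 library of each kind. The members and lists were chosen with earlier results of these data known. Named are, per species, the 5 highest and 5 lowest members by mean RPKM, the 4 largest excesses and deficits and the members found in 1 table only, and others were named after their values were seen. Alternatives were pseudocounts of 0.1 and 5 RPKM, filters of 0 and 10 RPKM, limits of 1.5-fold and 4-fold, the most abundant contig per locus, and scaling by the median ratio, by a mean ratio with 30% trimmed from each side, or to equal totals with and without the top 100 contigs. Median-ratio scaling and the 2-fold limit were tested on simulated data in which some loci were raised 4-fold. The sums per locus code were checked on the real data, and the other steps were not simulated. The codes come without names, so the lists of other ribosomal and translation genes that were planned by name were not used, and no sequence was read. Python 3.11.15, pandas 2.3.3, NumPy 2.4.6, SciPy 1.17.1 and Matplotlib 3.10.9 were used.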

Additional observations from a re-analysis of the deposited data

Results flagged for a closer look

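At 4 of the 32 members found in both tables the differences of the species had opposite directions under the same column numbers. Among all loci that passed the filter in each species, 3283 of 11054 did so, a larger share than among the members. Opposite directions as such were therefore not particular to the members. The difference in direction was not tested, because no library has a replicate and the stage behind a column number is unknown. The log2 difference of Vernicia minus that of Jatropha was 2.94 at AT2G39460 (1.97 and -0.97), the only one of the 4 with an excess of at least 2-fold on this scale as deposited; without the pseudocount AT3G25520 in Jatropha was 2.06 times as high in library 8. It was 1.91 at AT1G23290 (0.22 and -1.69), 1.54 at AT2G36620 (0.14 and -1.40) and -1.17 at AT3G25520 (-0.47 and 0.70). In AT1G23290 and AT3G25520 the species with the excess had under 3 RPKM in both libraries. The directions at AT2G39460, AT1G23290 and AT3G25520 were kept under all scalings run, and that of AT2G36620 in Vernicia turned when library totals were made equal.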

How the results depend on the processing

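In Jatropha the median difference of the members, -1.75, was -0.92 with median-ratio scaling, -0.93 with trimmed mean scaling, -0.83 with equal totals outside the top 100 contigs and -1.32 with equal totals over all contigs, the last an alternative chosen after seeing the data. The 30 of 34 members at least 2-fold lower became 11, 12, 10 and 26 under these scalings, and 8 at a 4-fold limit. Of all loci, 46.9% were at least 2-fold lower as deposited, and 24.0%, 24.2%, 22.3% and 33.7% under these scalings. At the 4-fold limit the share of all loci was 16.0%. Under these scalings 1 member (AT3G25520) became 2-fold higher, and 1 was higher at a 1.5-fold limit. In Vernicia, where the median was -0.53, these scalings gave -0.13, -0.14, -0.33 and -0.69. The 3 of 39 members at least 2-fold lower became 0, 0, 1 and 6 with these scalings. Of all loci, 18.8% were at least 2-fold lower as deposited, and 9.34%, 9.48%, 13.0% and 24.7% with these scalings. The 3 members became 5 with the most abundant contig per locus, 15 at 1.5-fold and 0 at 4-fold. The 1 member at least 2-fold higher became 3 with median-ratio and 2 with trimmed mean scaling, 2 with a pseudocount of 0.1 RPKM, 3 at 1.5-fold and 0 at 4-fold. Shares of all loci for higher members under the alternatives, and for the other Vernicia alternatives, are not given here. Those counts therefore cannot be set against loci in general. The interquartile range in Vernicia, 0.42, was 0.30 with a filter of 10 RPKM, where 35 members enter, and 0.40 without AT2G39460; in Jatropha it moved by less than 0.1 throughout. Of the RPKM without the top 10 contigs of either library, the members of Jatropha held 5.08% in library 7 and 2.25% in library 8, those of Vernicia 2.23% and 2.07%, and without AT2G39460 1.79% and 1.03% of all RPKM in Vernicia. Leaving out these contigs or AT2G39460, and using contigs of at least 10 RPKM only, which left both counts of lower members within 1.5 times, were alternatives chosen after seeing the data. Members lower in both species, 28 of 32 as deposited, were 22 with median-ratio scaling and 27 with the most abundant contig per locus. With pseudocounts of 0.1 and 5 RPKM they remained 28. Of all loci, 63.9% were lower in both as deposited and 34.8% with median-ratio scaling. The other scalings were not run for this count. Of the single named members, no difference of 2-fold or more changed sign. Where not given by the construction of an alternative, the cause was not tested. No paired analysis was possible because no result comes from a test and each stage has 1 library. Without read totals, no counting error of low members can be stated.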

Other observations

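Some contigs whose names share the same component number were matched to different members, so the RPKM of these members may not be separable. In Jatropha there were 3 such pairs. Contigs comp13934_c0 (AT1G23290, 557 and 172 RPKM) and comp13934_c1 (AT1G70600, 235 and 97.0 RPKM) had log2 differences of -1.69 and -1.27. Contigs comp14112_c0 (AT2G39460) and comp14112_c1 (AT3G55280) differed by -1.02 and -1.80, and comp13892_c0 (AT4G02230) and comp13892_c1 (AT3G16780) by -1.72 and -1.38. In Vernicia there were also 3, of AT1G02780 with AT3G16780, AT5G41520 with AT5G52650 and, at 1.63 to 5.04 RPKM, AT1G48830 with AT3G02560. In the last pair both contigs were higher in library 8, by 0.98 and 0.89, although both members were lower when all their contigs were summed.

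The makeup of the ribosomal protein RNA also differed between the Jatropha libraries. AT3G02560 held 12.0% of the members' summed RPKM in library 7 and 6.71% in library 8, while AT2G39460 held 2.71% and 4.83%, and AT3G16780 held 7.20% and 7.22%.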
